A study of Mus musculus with 4 samples.

Results

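The 6 genes described here encode the small protein modifier ISG15 (Isg15), the enzymes that attach it to other proteins (Uba7, Ube2l6 and Herc6), the protease that removes it (Usp18) and, listed with them, the interferon-stimulated exonuclease ISG20 (Isg20). They were chosen by symbol, each symbol belonged to 1 gene, and they are 6 of the 55536 annotated genes measured. Total RNA depleted of ribosomal RNA was sequenced from the cytosol of macrophages, phagocytes that had been grown from the bone marrow of C57BL/6J mice. All 4 libraries belong to 1 group: the cells were pretreated with lipid A, the piece of lipopolysaccharide sensed by Toll-like receptor 4, at 100 ng/ml for 12 h, kept without it for 12 h after a wash, and restimulated with 100 ng/ml for 15 min. The labels call the libraries biological replicates 1 to 4 and name 1 donor record for all of them. Whether they were separate cultures or animals is left unsaid. The p-values here set a level, ratio or difference against a fixed value. They rest only on the spread between these libraries, which may be technical. No untreated sample is used here, so none of the values shows a response to lipid A.

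ISG15 is made of a pair of ubiquitin-like domains and is attached to lysines of target proteins by a cascade like that of ubiquitin. UBA7, the E1 enzyme, activates ISG15, UBE2L6, the E2 enzyme, carries it, and HERC6, the main E3 ligase for it in the mouse, passes it to its targets. USP18 removes it again and, apart from that, restrains signalling at the type I interferon receptor through the chain IFNAR2. The genes are induced by type I interferon, which macrophages make after Toll-like receptor 4 is engaged. ISG20 degrades RNA from its 3′ end and takes no part in ISG15 attachment. Its gene is kept in the list as given.

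The end of the coding sequence is shown because ISG15 is attached to its targets through the same end motif as ubiquitin. The capitals mark the codons of this motif, read from the M21 annotation's transcripts of Isg15 and of Ubb, a polyubiquitin gene.

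Isg15-201: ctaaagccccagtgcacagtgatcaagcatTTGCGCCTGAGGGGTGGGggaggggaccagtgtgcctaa
Ubb-201: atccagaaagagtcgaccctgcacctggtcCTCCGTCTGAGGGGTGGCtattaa

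The motif was found once in the coding sequence of Isg15-201 (486 bases) and 4 times in that of Ubb-201 (918 bases). In Isg15-201, 6 codons stood between the motif and the stop codon, and in Ubb-201 there was 1. Such extra codons are cut off before the modifier can be attached.

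Upstream sequence is shown for the modifier, for its E2 enzyme and for both main start sites of Isg20, because the levels below differ between these genes and the 2 starts of Isg20 shared its transcripts. The 150 bases before each RefSeq start (GRCm38.p6, the build also called mm10) are printed in the direction of transcription. The capitals mark the core of the interferon-stimulated response element, which is GAAA, any 2 bases and GAAA again.

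Isg15, chr4:156200819-156200968, minus strand: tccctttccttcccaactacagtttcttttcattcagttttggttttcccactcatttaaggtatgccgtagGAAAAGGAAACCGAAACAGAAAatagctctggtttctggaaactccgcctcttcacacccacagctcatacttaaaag
Ube2l6, chr2:84798678-84798827, plus strand: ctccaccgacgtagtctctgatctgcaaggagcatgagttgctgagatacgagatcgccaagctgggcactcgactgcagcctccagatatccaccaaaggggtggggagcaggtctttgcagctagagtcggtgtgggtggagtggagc
Isg20, start of Isg20-201, chr7:78913615-78913764, plus strand: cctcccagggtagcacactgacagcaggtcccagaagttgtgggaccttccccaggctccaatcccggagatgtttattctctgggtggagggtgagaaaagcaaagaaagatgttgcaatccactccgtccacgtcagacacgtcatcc
Isg20, start of Isg20-203, chr7:78914085-78914234, plus strand: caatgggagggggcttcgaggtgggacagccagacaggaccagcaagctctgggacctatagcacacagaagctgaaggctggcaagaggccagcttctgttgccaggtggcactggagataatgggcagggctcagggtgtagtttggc

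None of the 4 stretches overlaps an exon of the M21 annotation. Those of Isg20 lie in introns of its transcripts that start further upstream, and those of Isg15 and Ube2l6 lie outside annotated transcripts. RefSeq windows were matched for 5 of the members, 7 windows in all, and Usp18 was not matched. Both strands of the 250 bases before each start were searched. The response element core was found in the Isg15 window, as 3 overlapping matches that begin 78, 72 and 66 bases before the start, and in no other member's window. Of 32851 windows of this length, 2.98% held it. A second motif, the STAT-binding GAS core TTCNNNGAA, which reads the same on both strands, matched once, in the window of Isg20-202, a start of Isg20 that is not printed, and 7.02% of windows held it. Both motifs were chosen after the sequences and values had been seen. A match describes these letters only, and a window without one says nothing of what binds there.

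All 6 transcripts were abundant. Levels are given as TPM, the abundance of a transcript corrected for its length and scaled to a fixed total in each library, as mean ± SD over 4 libraries. Isg15 stood highest at 715.9 ± 274 TPM, and the other 5 lay between 63.1 and 113.2 TPM. Every member lay above 1 TPM and above 10 TPM (limma, one-sided, Benjamini-Hochberg adjusted p below 0.05 over the 16262 genes tested). Of all genes tested, 58.2% lay above 1 TPM and 21.7% above 10 TPM, so the higher level separates the members from more of the transcriptome. Among protein-coding genes tested the shares were 71.2% and 27%. The median of the members, 92.4 TPM, stood beside a median of 2.72 TPM over all genes tested and 4.85 TPM over the protein-coding ones.

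**Figure D1:**
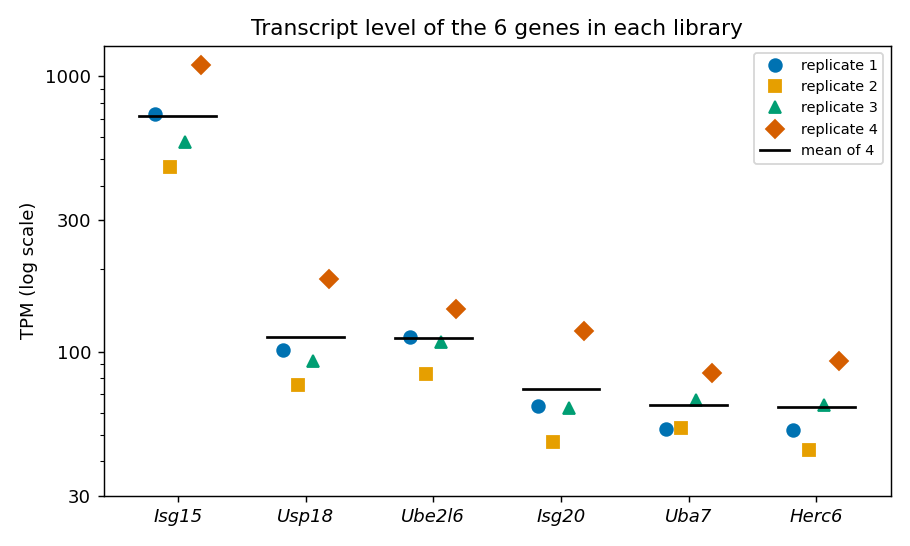
TPM (log axis) of the 6 genes in the 4 libraries. Symbols are libraries and the line is their mean. Isg15 lies above the other 5 genes in each library, and replicate 4 is the highest library for all 6 genes.

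Isg15, the modifier, is on the minus strand of chromosome 4 (156199424 to 156200818, mm10). It stood at 727.5, 467.9, 573.9 and 1094.5 TPM in replicates 1 to 4. Replicate 4 was high and replicate 2 low, with 2.34 times between them. Its mean lay at percentile 99.7 of the protein-coding genes tested (adjusted p above 10 TPM 3.18e-08, limma). Counts were 17671 or more in each library, so counting error was small beside the spread between libraries. The biological coefficient of variation, the spread left after counting error (edgeR), was 0.222, near the middle of all genes tested (percentile 52.7). It lay above the median of the more abundant genes, which was 0.144 over all genes called above 10 TPM.

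Isg15 was also compared with the genes of other ubiquitin-like modifiers. Of 15 such genes, 14 were tested, 14 lay above 1 TPM and 12 above 10 TPM, with a median of 77.1 TPM over the list. Among the highest were Fau, whose product fuses a ubiquitin-like protein to a ribosomal protein, at 429.4 ± 26.8 TPM, and Ubb at 362.1 ± 101.9 TPM. Isg15 was 1.94 ± 0.24 times Ubb within a library, higher in 4 of 4 libraries, and 1.86 ± 0.26 times Ubb in the second quantification. Ubb consists of ubiquitin repeats, so the division of its reads among similar sequences is uncertain. Ubd, which encodes the other modifier with a pair of ubiquitin-like domains (FAT10), stood at 0 to 0.08 TPM and had too few counts to be tested.

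Uba7, which encodes the E1 enzyme, is on the plus strand of chromosome 9 (107975505 to 107984060). It stood at 52.4, 53.0, 66.7 and 83.6 TPM in replicates 1 to 4, a range of 1.60 times, with replicates 1 and 2 close together at the low end. The mean was 63.9 ± 14.7 TPM, at percentile 94.0 of protein-coding genes (adjusted p above 10 TPM 2.55e-07, limma). The gene sum was higher than that of Uba1, the E1 of ubiquitin, in 4 of 4 libraries: 41.6, 31.1, 46.1 and 55.3 TPM for Uba1, and a ratio of 1.48 ± 0.18. That order rests on which transcripts are counted. With protein-coding transcripts alone, Uba7 stood at 30.8 ± 12.1 and Uba1 at 43.0 ± 10.1 TPM, and Uba7 was the lower in 4 of 4 libraries (ratio 0.699 ± 0.116). The other 9 E1 genes all lay above 1 TPM, 4 of them above 10 TPM, with a median of 11.3 TPM. After Uba1, Sae1, a subunit of the SUMO E1, stood at 17.2 ± 2.57 and Atg7, the E1 of autophagy modifiers, at 14.1 ± 1.91 TPM.

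Ube2l6, which encodes the E2 enzyme, is on the plus strand of chromosome 2 (84798828 to 84810335). It stood at 113.3, 82.9, 108.5 and 142.8 TPM in replicates 1 to 4. Replicates 1 and 3 lay close together, between a low replicate 2 and a high replicate 4. The mean was 111.9 ± 24.6 TPM, at percentile 96.6 (adjusted p above 10 TPM 6.46e-08, limma). Its biological coefficient of variation of 0.145 was the lowest of the 6 over all 4 libraries. The value lay at percentile 25.2 of all genes tested, close to the median of 0.144 over genes called above 10 TPM. Without replicate 4 it was 0.150, above that of Isg20 (0.135) and level with that of Usp18 (0.150). Its paralog Ube2l3, an E2 of ubiquitin, stood at 101.5, 69.2, 80.4 and 108.2 TPM, and Ube2l6 was the higher in 4 of 4 libraries, with a ratio of 1.25 ± 0.11. In the second quantification that ratio was 1.07 ± 0.12, above 1 in 2 of 4 libraries. Of 11 other E2 genes, 10 lay above 1 TPM and 8 above 10 TPM, with a median of 53.4 TPM. Ube2d3, a widely used E2 of ubiquitin, led them at 135.8 ± 28.7 TPM, a range that overlaps that of Ube2l6. The 1 gene with no call was Ube2e2, named after its value was seen, at 0.763 ± 0.375 TPM. The lowest library of Ube2l6 lay above the first 3 libraries of Uba7 and just below the fourth.

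Herc6, which encodes the ligase, is on the plus strand of chromosome 6 (57581000 to 57664632). It stood at 52.1, 44.0, 63.9 and 92.6 TPM in replicates 1 to 4. Replicate 4 was again the highest, 2.10 times the lowest. The mean was 63.1 ± 21.3 TPM, at percentile 93.9 (adjusted p above 10 TPM 9.36e-07, limma). The 4 related HERC genes all lay above 1 TPM and none was called above 10 TPM. Herc1 stood at 7.06, 9.54, 12.8 and 12.7 TPM, Herc4 averaged 9.74 ± 1.87 and Herc2, a ligase of the DNA damage response, 6.05 ± 1.33 TPM. Herc6 was 6.07 ± 1.47 times Herc1 within a library, and no library of Herc6 overlapped with any of Herc1. A pair of other ligases has been reported to act on ISG15. Trim25, also a ubiquitin ligase of the RIG-I pathway, stood at 39.9, 42.9, 49.3 and 73.9 TPM, close to Herc6 (Herc6 to Trim25 1.22 ± 0.13, above 1 in 4 of 4 libraries, and 1.10 ± 0.15 and 3 of 4 with protein-coding transcripts alone). Arih1 stood lower, at 16.9 ± 3.85 TPM.

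Usp18, which encodes the protease, is on the same chromosome (121245906 to 121270917, plus strand). It stood at 101.0, 75.6, 92.4 and 184.0 TPM in replicates 1 to 4. The first 3 lay within a narrow band and replicate 4 stood well above them. The mean was 113.2 ± 48.3 TPM, at percentile 96.7 (adjusted p above 10 TPM 3.59e-07, limma), and the biological coefficient of variation was 0.223. Of 6 other deubiquitinases reported to act on ISG15, 5 were tested. Of these, 4 lay above 1 TPM, 2 of them above 10 TPM, and Usp2 lay below 1 TPM, at 0.625 ± 0.255 TPM (adjusted p below 1 TPM 0.0202, limma; 35.1% of all genes tested lay below). Usp13 is listed at 0 in each library. Usp5, which takes apart free ubiquitin chains, led them at 21.3, 17.3, 23.5 and 22.7 TPM, followed by the proteasome-bound Usp14 at 17.6 ± 2.39 and Usp16 at 11.7 ± 1.79 TPM. Usp18 was 5.28 ± 1.90 times Usp5, with 8.09 in replicate 4 and 3.93 to 4.73 in the other libraries.

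The genes of the receptor arm that USP18 restrains were all present. All 7 lay above 1 TPM and above 10 TPM, with a median of 36.1 TPM. Ifnar2, the receptor chain that USP18 binds, stood at 57.7, 50.9, 67.8 and 75.6 TPM. Stat2, the transcription factor through which USP18 is held at the receptor, stood at 116.0, 106.5, 136.8 and 220.8 TPM. In TPM as deposited, replicate 4 was the highest library for both, as it was for 70.4% of protein-coding genes of at least 10 TPM. Rescaling so that protein-coding genes have the same total multiplies TPM by 3.34 in replicate 3 and by 2.73 in replicate 4. On that scale Ifnar2 was highest in replicate 3, and Stat2 stayed highest in replicate 4. Secreted ISG15 binds the integrin LFA-1, whose chains Itgb2 and Itgal stood at 103.3 ± 21.4 and 28.0 ± 12.7 TPM, both above 10 TPM.

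Isg20, the exonuclease gene, is on the plus strand of chromosome 7 (78913424 to 78920396). It stood at 63.5, 46.8, 62.3 and 118.7 TPM in replicates 1 to 4. As with Usp18, replicate 4 stood apart from the other 3, here at 2.54 times the lowest, the widest range of the 6. The mean was 72.8 ± 31.5 TPM, at percentile 94.7 (adjusted p above 10 TPM 1.5e-06, limma), on counts of 2524 to 5528. All 6 other exonuclease genes lay above 1 TPM but 1 alone above 10 TPM, Trex1, which degrades cytosolic DNA. Trex1 stood at 143.1, 118.2, 129.2 and 240.5 TPM, and Isg20 was 0.454 ± 0.044 times Trex1, lower in 4 of 4 libraries. Exosc10, a nuclease of the nuclear exosome, averaged 12.6 ± 1.60 TPM, and Rexo4 8.42 ± 0.844 TPM. The pairs of a member and a relative were chosen with the values known. With 4 libraries an exact sign-flip test cannot go below 0.12, and each of the 7 pairs gave that value, also after adjustment over the 7.

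**Figure D2:**
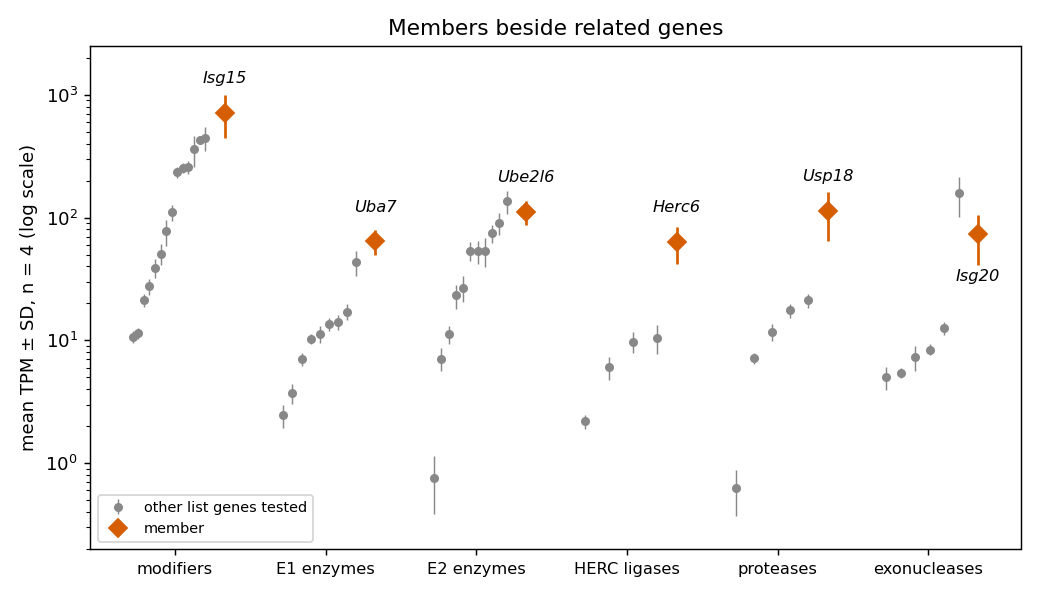
Mean TPM with SD over 4 libraries (log axis) of each member (diamond) and of the tested genes of the list set beside it (grey points). Uba7, Herc6 and Usp18 stand above all genes of their lists by gene sums, Ube2l6 at 111.9 TPM lies below Ube2d3, and Isg20 at 72.8 TPM lies below Trex1.

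Transcripts of the modifier were several times more abundant than those of every other member. Within a library, Isg15 stood at 6.39 ± 0.56 times Usp18, with 7.20, 6.19, 6.21 and 5.95 in replicates 1 to 4. The ratio to Ube2l6 was 6.25 ± 1.05 and that to Isg20 9.97 ± 1.05. The ratios to Uba7 and Herc6 were larger and more scattered. That to Uba7 was 13.9, 8.83, 8.61 and 13.1, which is 11.1 ± 2.78, and that to Herc6 11.4 ± 2.09. With protein-coding transcripts alone the ratio to Uba7 was 23.7 ± 4.46 (28.4, 25.3, 17.8 and 23.3). All these ratios were above 1 in 4 of 4 libraries, at the exact sign-flip p of 0.12 that is the smallest possible with 4 libraries. A ratio within a library does not depend on how the library was scaled.

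**Figure D3:**
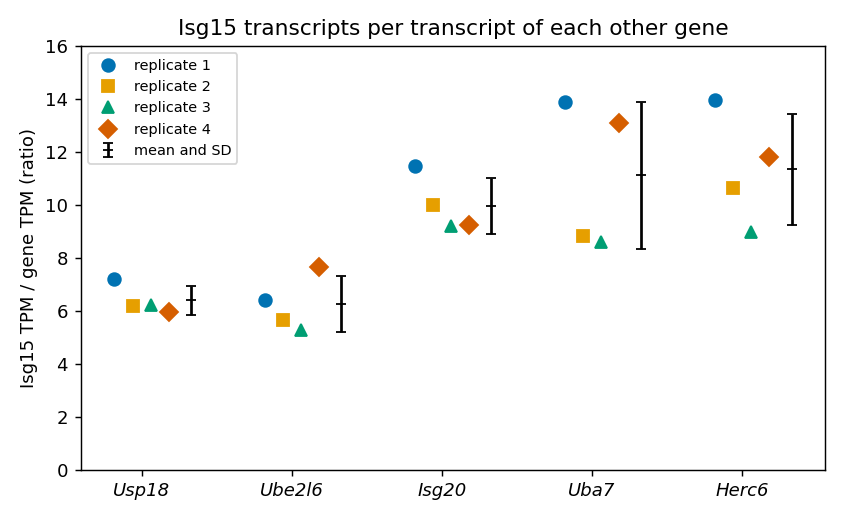
Ratio of Isg15 TPM to the TPM of each other gene, by library (symbols), with the mean and SD over 4 libraries in black. The ratio to Usp18 keeps between 5.95 and 7.20, while that to Uba7 ranges from 8.61 to 13.9.

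By mean TPM the order was Isg15, Usp18, Ube2l6, Isg20, Uba7 and Herc6, and few neighbours were separated. Usp18 and Ube2l6 did not differ beyond their spread: the ratio was 0.891, 0.912, 0.852 and 1.29 (exact sign-flip p = 0.875, adjusted over the 5 neighbouring pairs 0.875). Ube2l6 lay above Isg20 in 4 of 4 libraries, at 1.62 ± 0.28 times (exact sign-flip p = 0.12, adjusted 0.312). Isg20 and Uba7 changed places between libraries (ratio 1.11 ± 0.25, exact sign-flip p = 0.5, adjusted 0.781), but with protein-coding transcripts alone Isg20 was 2.34 ± 0.28 times Uba7, higher in 4 of 4. Uba7 and Herc6 also changed places (1.04 ± 0.13, exact sign-flip p = 0.625, adjusted 0.781). With protein-coding transcripts alone, Herc6 averaged 56.7 ± 19.5 TPM against 30.8 ± 12.1 for Uba7, and Uba7 was the lower in 4 of 4 libraries (ratio 0.536 ± 0.031).

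Replicate 4 was the highest library for 6 of 6 members. TPM is relative, and the RNA of the signal recognition particle alone took 55.9% to 65.6% of it. Of 4213 protein-coding genes of at least 10 TPM, 70.4% were highest in replicate 4 as well, and their median there stood 0.25 above their own mean on the log2 scale, against 0.27 below it in replicate 2. When TPM was rescaled so that protein-coding genes had the same total in every library, those medians lay within 0.015 of 0, 22.4% of these genes were highest in replicate 4, and the members still were in 6 of 6 cases. On that scale Isg15 stood at 2294, 1849, 1915 and 2988, Usp18 at 318.5, 298.8, 308.4 and 502.2, and Isg20 at 200.3, 184.9, 208.0 and 324.0. The range narrowed to 1.62 times for Isg15 and 1.19 times for Ube2l6, which was the most even of the 6, at 357.3, 327.5, 362.1 and 389.8. With edgeR's TMM factors and with DESeq2's size factors the members were again highest in replicate 4 in 6 of 6 cases, beside 28.8% and 29.6% of the genes. In the second quantification as deposited, 5 of 6 were, beside 11.3% of the genes, and Ube2l6 was highest in replicate 1. This count was made after the values had been seen and is given with no test, and in bulk RNA a larger number of cells with these transcripts and more of them per cell cannot be told apart.

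**Figure D4:**
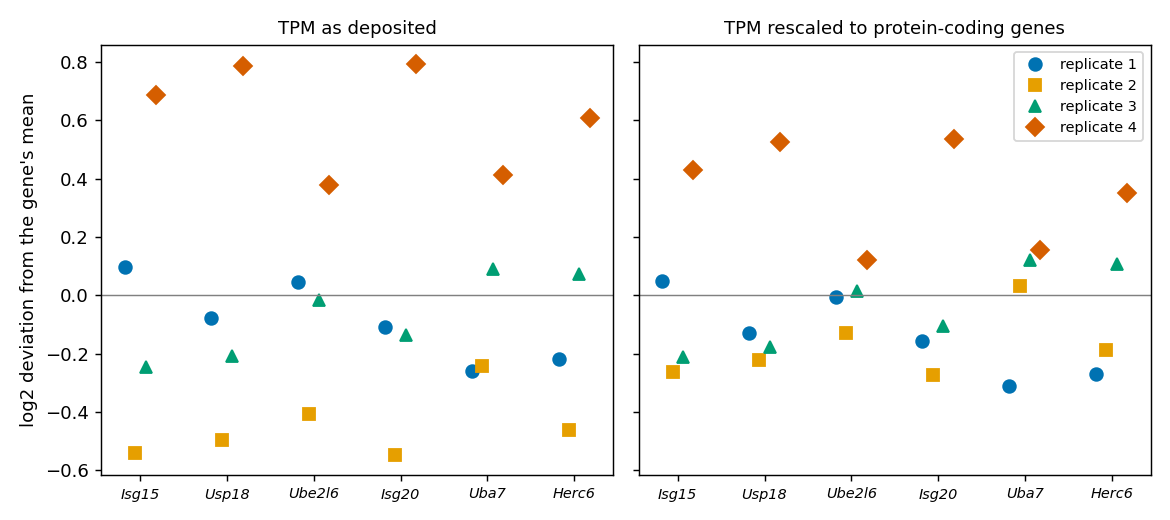
Log2 deviation of each library from the gene's mean over the 4 libraries, for TPM as deposited (left) and for TPM rescaled to protein-coding genes (right). Replicate 4 lies above 0 for all 6 genes in both panels, by 0.38 to 0.79 on the left and 0.12 to 0.54 on the right.

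The members were not equally close to Isg15 in their profile over the libraries. Likeness to Isg15 was measured as the root mean square difference of log2 deviations from a gene's own mean over the 4 libraries, among 4380 genes of at least 10 TPM. The 3 nearest genes were BC147527 (distance 0.027), Tlr3, the receptor for double-stranded RNA in endosomes (0.027), and Acsl1, an enzyme that activates fatty acids (0.033). Tlr3 stood at 22.9, 14.5, 18.4 and 35.8 TPM, the same order of libraries as Isg15. Usp18 ranked 30 (0.105) and Isg20 59 (0.128), while Ube2l6 ranked 358, Herc6 592 and Uba7 2150. Rescaling to protein-coding genes shifts all genes of a library alike, so it could hardly change these distances and is no check of them. After it the same 3 were nearest and Uba7 ranked 2163. With 4 libraries the likeness is a description. In TPM as deposited, Usp18, Isg20 and Ube2l6 had the order of libraries of Isg15 (replicate 2 lowest, then 3, 1 and 4), whereas Uba7 was lowest in replicate 1 and Herc6 had replicate 3 above replicate 1. Rescaled to protein-coding genes, Usp18 alone of the 5 shared the order of Isg15: Isg20 and Ube2l6 had replicate 3 above replicate 1, and Herc6 was lowest in replicate 1.

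By shares of TPM, the annotated transcripts split the members into 2 kinds. Nearly all TPM of Isg15, Usp18 and Ube2l6 belonged to 1 protein-coding transcript: Isg15-201 is the only one annotated, Usp18-201 held 99.1% ± 0.67 and Ube2l6-201 held 99.0% ± 0.29. The other 3 were divided, Herc6 the least. The Uba7 sum was held to 47.1% ± 8.82 by the protein-coding Uba7-201 and to 37.0% ± 5.94 by Uba7-212, a retained-intron transcript of 503 bases at the 3′ end of the gene (107983025 to 107984053). Uba7-212 stood at 20.96, 20.6, 27.2 and 23.5 TPM and Uba7-201 at 25.6, 18.5, 32.2 and 46.9 TPM, so the short transcript was the more even of the pair. Because TPM corrects for length, Uba7-212 took only 5.68% ± 1.05 of the gene's expected counts, against 75.6% ± 10.8 for Uba7-201. Retained-intron transcripts together held 45.0% ± 7.66 of the Uba7 sum. The end of Uba7 also overlaps Gm20661 on the same strand, itself at 0.0375 TPM.

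Isg20 was divided between a pair of protein-coding transcripts with different starts. Isg20-201, from 78913765, held 68.4% ± 1.46 and Isg20-203, from 78914235, held 30.1% ± 1.22. The windows before these 2 starts are printed above. The shares hardly moved between libraries: Isg20-203 held 30.7%, 29.5%, 28.7% and 31.5% in replicates 1 to 4, although its TPM ran from 13.8 in replicate 2 to 37.4 in replicate 4. Herc6-201 held 89.6% ± 3.23 of the Herc6 sum, and the retained-intron transcript Herc6-205 4.49% ± 0.55. By counts Herc6-201 was more dominant, with 96.4% ± 2.8 of the gene's expected counts, against 74.9% ± 1.32 for Isg20-201. In the second quantification Herc6-201 took 93.3% ± 3.43 of the gene's estimated counts.

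The second quantification, made from the reads without the alignment, gave other shares for these 3 genes. Uba7-201 held 58.4% ± 13.6 and Uba7-212 held 17.7% ± 6.84 of the gene's TPM. Isg20-201 held 81.2% ± 2.67 and Isg20-203 15.7% ± 1.24. Herc6-201 held 73.0% ± 6.46 and Herc6-205 14.4% ± 1.97. The leading transcript was the same in both for each gene, and the differences between the quantifications were not tested transcript by transcript.

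**Figure D5:**
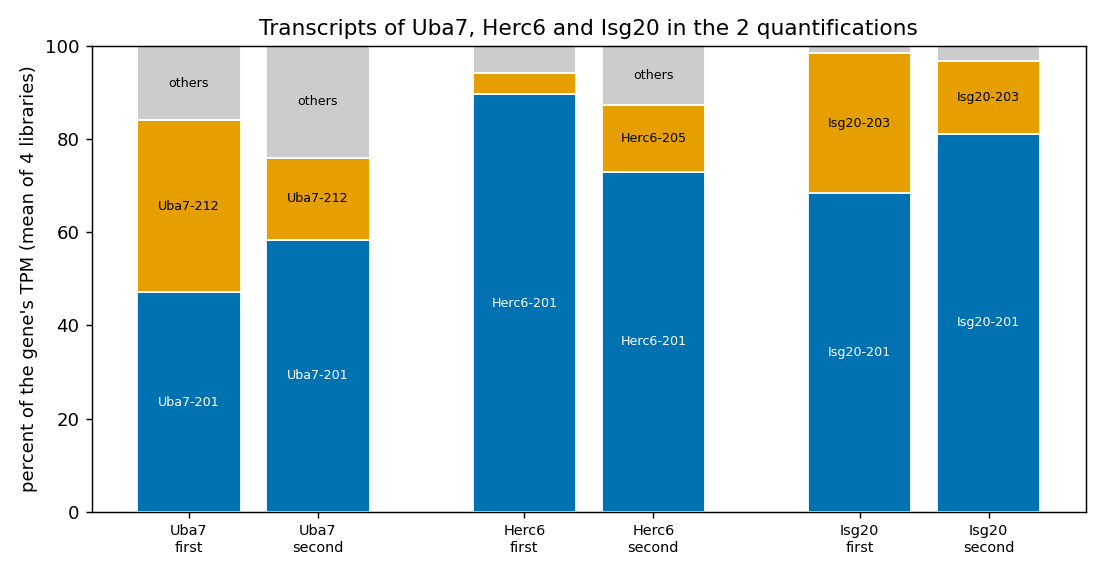
Percent of the gene's TPM held by the leading transcript (blue), the next named one (orange) and all others (grey), as means over 4 libraries in the first and second quantification. Uba7-212 holds 37.0% in the first and 17.7% in the second, and Isg20-203 30.1% and 15.7%.

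At gene level the second quantification gave lower TPM for all 6 members, as it did for genes in general. Its means were 249.2 TPM for Isg15, 38.5 for Usp18, 37.4 for Ube2l6, 25.7 for Herc6, 24.1 for Isg20 and 18.4 for Uba7, so that Herc6 ranked above Isg20 and Uba7. The log2 difference was -1.51 for Isg15, -1.78 for Uba7, -1.57 for Ube2l6, -1.25 for Herc6, -1.52 for Usp18 and -1.56 for Isg20, around a median of -1.40 over 10329 genes. Uba7 alone was called as lower by more than a log2 difference of 1 (limma treat, adjusted p = 0.0233; 4.28% of genes were called lower and 2.22% higher). That call was lost without replicate 3, without replicate 4 and with a pseudocount of 0.01 in place of 0.1. The fit gave each of the 6 members the same standard error, 0.2585 on the log2 scale. Its p-values therefore follow the size of the mean difference and do not measure a gene's own spread between libraries. With both quantifications rescaled to protein-coding genes 0 members were called, beside 0.956% of genes lower and 3.31% higher, and the differences ran from -0.31 for Uba7 to 0.21 for Herc6. With other settings of the deposited values, the number of members called lower was 0 with a pseudocount of 0.01 (2.93% of genes lower, 2.32% higher), 5 with a pseudocount of 1 (12.8% lower, 0.939% higher), 5 with no minimum level (30.4% lower, 0.301% higher) and 6 with the tested log2 difference set to 0 (96.5% lower, 2.71% higher).

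Counts of the members were 2524 or more in each library. Expected counts over all genes summed to 30660511 to 48223718 per library, and replicate 1 was the shallowest. The cells carried macrophage RNA: 8 of 8 macrophage markers lay above 10 TPM, with a summed level of 4149 to 6521 TPM. Markers of neutrophils and their precursors summed to 3.88 to 7.53 TPM, with S100a8 the 1 of 5 above 1 TPM, and those of plasmacytoid dendritic cells, strong producers of type I interferon, to 0.11 to 0.22 TPM. T cell, B cell, NK cell, fibroblast and erythroid markers each summed to at most 0.35 TPM. Members overlap few genes that could share their reads: Herc6 overlaps Gm45193 (0.37 TPM) and Gm19244 (0.198 TPM), and Usp18 overlaps the opposite-strand lincRNA Gm44148 (0.1 TPM).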

How the data were processed

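Values came from 1 gene table and 2 transcript tables per library. Per the file headers, expected counts and TPM stand in the gene table and in 1 transcript table (here the first), and estimated counts and TPM in the other (the second). The deposited notes name mm10 and the M21 annotation, a transcriptome alignment for the first quantification and the reads alone for the second. The aligner and other tools were not given in the sources used here. Members and gene lists were chosen with earlier results of these data known, and so were the levels of 1 and 10 TPM. Arih1 stands for a misspelt symbol of the list, corrected after the files were seen.

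A gene was tested where its expected counts over the 4 libraries reached 10. Levels on the log2(TPM + 0.1) scale were set one-sided against 1 and 10 TPM with limma 3.58.1 (lmFit, eBayes with trend, no covariate), with Benjamini-Hochberg adjustment over all genes. Tested on simulated data of 16262 genes, 50 of 50 genes were recovered at each simulated level. These levels were 0.25 and 0.5 TPM, tested as below 1 TPM, and 20 and 40 TPM, tested as above 10 TPM. Recovery of the call above 1 TPM was not measured. The simulation gave every gene the same spread and no shift between libraries. The spread (biological coefficient of variation per gene) was taken from edgeR 4.0.16 with TMM and estimateDisp on expected counts rounded to whole numbers. Quantifications were compared with limma treat (log2 difference of 1, no trend) for genes with a mean of at least 1 TPM in either. Ratios were tested with exact two-sided sign-flip permutations. DESeq2 1.42.0 gave alternative size factors and dispersions. R 4.3.3 and Python 3.11.15 were used. Named genes are the members, the 3 highest of each list and those below 1 TPM or not tested, genes fixed by name (among them Uba1, Ube2l3, Trim25, Ubb, Ifnar2 and Stat2) and the 3 nearest to Isg15 in profile; some genes that this rule selects are left out of the text. Ratios to related genes, ratios over protein-coding transcripts alone, rescaled profiles and the order of libraries were added after the values were seen.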

Additional observations from a re-analysis of the deposited data

Results flagged for a closer look

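In 2 of 20 groups of 4 values (levels, ratios and leading transcript shares), 1 library lay so far from the others that its gap to the nearest, as a share of the whole range, exceeded Dixon's critical value for 4 samples. The ratio of Usp18 to Ube2l6 was 1.288 in replicate 4 and 0.852 to 0.912 in the other 3. The ratio of Ube2l6 to Isg20 was 1.203 in replicate 4 and 1.74 to 1.78 in the other 3. Chance marks about 1 in 20 groups in this way, and the groups share members.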

How the results depend on the processing

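The counts of 6 members above 1 TPM and 6 above 10 TPM kept their values under each pseudocount, filter, scaling, quantification and left-out replicate run. Rescaling to protein-coding genes raised every TPM of the first quantification (2.73 to 3.95 times), so it could not lower these counts. With members at 44.0 TPM or more in each library, pseudocounts and filters could hardly lower them either. No paired analysis was possible because the labels give 1 group. The mean log2 ratio of Usp18 to Ube2l6 changed sign in the second quantification (0.0099), and leaving out 1 replicate gave -0.18 to 0.022. That of Uba7 to Herc6 changed sign in the second quantification (-0.48) and with protein-coding transcripts alone (-0.90), and leaving out 1 replicate gave -0.026 to 0.11. With protein-coding transcripts alone that of Isg20 to Uba7 was 1.22 in place of 0.13, and that of Isg15 to Uba7 4.55 in place of 3.44. That of Uba7 to Uba1 became -0.53 with protein-coding transcripts alone. The difference between quantifications turned to 0.21 for Herc6 when both were rescaled. The number of members called in that comparison was 1, against 0 with a pseudocount of 0.01 and when rescaled, 5 with a pseudocount of 1 (12.8% of all genes called lower), 5 with no minimum level (30.4%), 6 with a log2 difference of 0 (96.5%), and 0 to 1 without 1 replicate. The leading share in the second quantification was 58.4% for Uba7, 97.2% for Ube2l6, 73.0% for Herc6, 98.4% for Usp18 and 81.2% for Isg20. The members' median biological coefficient of variation ran from 0.152 (without replicate 4) to 0.226 when 1 replicate was left out, moves being judged by the SD of those 4 values. The cause was not tested for any of these. Intervals between libraries rest on 4 samples of 1 condition.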
